A study of Mus musculus with 11 samples.

Results

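The genes whose symbols begin with Nduf encode the nuclear subunits of mitochondrial complex I, the NADH:ubiquinone oxidoreductase, together with several of the factors that assemble it. They were followed here in the pancreas of young mice whose mothers had been fed a control or a low protein diet. Members were taken by symbol alone: every Nduf gene with at least one array probe set assigned to a single gene was kept, which gave 44 of 18194 genes. Each gene was read from its probe set of highest mean signal over the 11 arrays. Of these, 42 were bright enough to be tested, among 15897 genes tested in all. Ndufs6 and Ndufa11 were not analysed here.

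Pancreas RNA came from female Balb/C offspring at 30 days of age. Dams ate a diet of 20% protein (control) or an isocaloric diet of 8% protein (low protein) during gestation, and all dams received the control diet from birth on. Offspring were injected daily from day 1 to day 5 with streptozotocin (STZ), a glucose analogue toxic to the insulin-secreting beta cells, at 35 mg per kg body weight, or with citrate buffer alone (sham). There were 3 arrays of control sham, 2 of control STZ (replicates 1 and 3), 3 of low protein sham and 3 of low protein STZ offspring; control STZ replicate 2 was not analysed here. The labels call the arrays biological replicates but name neither dam nor litter, so diet and litter cannot be told apart, and p-values measure only the spread between these arrays.

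Complex I is the entry point of the respiratory chain: it takes electrons from NADH, passes them to ubiquinone and pumps protons across the inner mitochondrial membrane. Its matrix arm carries the flavin and the iron-sulfur clusters, its membrane arm carries the proton channels, and a shell of accessory subunits stabilises both. The core subunits of the membrane arm are encoded by mitochondrial DNA, so the complex is built from transcripts of both genomes, and dedicated assembly factors, which are absent from the finished enzyme, join the modules. In beta cells, mitochondrial respiration couples glucose metabolism to insulin release, and the exocrine acinar cells that make up most of the pancreas depend on it for the synthesis of digestive enzymes.

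The promoters of these genes are shown because the members are read together below, and because binding sites for a few activators of nuclear respiratory genes are known from many of them. RefSeq start sites on GRCm38.p6 were available for 39 of the 44 genes, with 41 windows of 300 bases (250 before to 50 after the start); Ndufa2, Ndufa4l2, Ndufaf6, Ndufb9 and Ndufs1 had no entry. The windows were searched on both strands for GCGCANGCG (NRF1), CCGGAAG (GABPA), AAGGTCA (ERRA) and AAGATGGCG (YY1). NRF1 matches lay in 22.0% of the Nduf windows and in 6.2% of all 32851 promoter windows of the table. YY1 matches lay in 12.2% against 1.4%, GABPA matches in 14.6% against 8.9% and ERRA matches in 7.3% against 4.7%. In all, 19 Nduf genes held at least one match, and no matches of 2 factors overlapped. NRF1 matches were found in 6 of 31 subunit genes and in 2 of 7 assembly factor genes. A match is a run of letters and not evidence of binding.

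Printed below, 5′ to 3′ on the strand of the gene with each match in capitals, are the windows of the 3 genes that held a match among the 4 members with the smallest p-values between the diets after STZ, and of Ndufaf3, the gene with the largest positive difference there. Ndufb2 lies on the plus strand at chr6:39592315-39592614 with an ERRA match at bases 70 to 76 of the window. Ndufb7 lies on the plus strand at chr8:83566508-83566807 with a GABPA match at bases 231 to 237. Ndufa6 lies on the minus strand at chr15:82354242-82354541 with an NRF1 match, read on the opposite strand, at bases 275 to 283. Ndufaf3 lies on the minus strand at chr9:108567387-108567686 and holds none of the 4 motifs.
Ndufb2: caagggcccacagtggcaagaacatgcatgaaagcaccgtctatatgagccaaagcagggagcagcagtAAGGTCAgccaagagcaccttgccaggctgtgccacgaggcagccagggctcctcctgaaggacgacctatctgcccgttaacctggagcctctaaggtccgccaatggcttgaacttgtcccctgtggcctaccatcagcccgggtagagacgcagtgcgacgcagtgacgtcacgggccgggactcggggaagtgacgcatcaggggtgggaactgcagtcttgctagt
Ndufb7: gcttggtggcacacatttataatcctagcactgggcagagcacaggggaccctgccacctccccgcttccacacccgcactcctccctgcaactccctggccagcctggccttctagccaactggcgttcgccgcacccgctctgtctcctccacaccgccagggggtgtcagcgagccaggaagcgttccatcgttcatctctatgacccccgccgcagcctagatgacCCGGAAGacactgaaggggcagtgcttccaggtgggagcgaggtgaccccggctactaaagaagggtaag
Ndufa6: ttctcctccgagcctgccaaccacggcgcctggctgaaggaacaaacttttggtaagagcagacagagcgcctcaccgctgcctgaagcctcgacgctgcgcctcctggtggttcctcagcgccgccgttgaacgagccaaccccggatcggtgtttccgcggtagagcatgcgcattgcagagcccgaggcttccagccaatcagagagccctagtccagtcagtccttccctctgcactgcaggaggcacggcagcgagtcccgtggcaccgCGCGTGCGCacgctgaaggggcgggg
Ndufaf3: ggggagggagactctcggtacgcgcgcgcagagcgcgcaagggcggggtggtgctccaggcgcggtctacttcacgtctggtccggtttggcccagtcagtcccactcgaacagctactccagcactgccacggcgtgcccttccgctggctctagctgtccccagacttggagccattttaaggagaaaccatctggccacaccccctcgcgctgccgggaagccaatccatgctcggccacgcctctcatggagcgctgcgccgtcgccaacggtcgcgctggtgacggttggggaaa

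Most of the Nduf genes gave bright signals. All values are log2 signals as the authors deposited them, so a difference of 1 is a change by a factor of 2; the brightness of a probe set also depends on its probes and does not rank the transcripts. The mean signal of the 42 tested genes had a median of 10.66, against 8.74 over all genes tested, and the middle member stood at percentile 92.35 of the genes tested. The brightest were Ndufa1 (12.90), a small membrane arm subunit needed for assembly, Ndufv3 (12.33), a matrix arm accessory subunit, and Ndufb9 (12.10), a membrane arm subunit of the LYR family that holds the acyl carrier protein. The dimmest tested were Ndufb1 (7.43), Ndufaf2 (7.67) and Ndufaf7 (7.82), the last 2 being assembly factors. Ndufaf6 (6.20), an assembly factor, and Ndufb4 (6.85), a membrane arm subunit just under the limit of 6.87, were left out of the tests as dim. Ndufb4 was read from 1 probe set; 2 more that also name Ndufb4b and Ndufb4c were not used. Ndufa4, once assigned to complex I and now to complex IV, had a mean signal of 11.38, and its paralog Ndufa4l2 one of 8.75.

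The arrays were alike in overall level, with medians over all probe sets from 7.92 to 7.97 and correlations with the other arrays from 0.98 to 0.99. The acinar cell markers stood near the top of the scale on every array, as the label pancreas implies. The spread of signals within an array was larger in the control arrays (SD 1.60 to 1.67) than in the low protein arrays (SD 1.52 to 1.62), with a narrow overlap. One array, low protein STZ replicate 1, lay at the lower end for most Nduf genes and is treated with each result it touches. It also had the smallest spread (SD 1.52) and the lowest acinar marker level of the 11 arrays (14.96, with the next lowest at 15.30). Its T cell level (9.31, next highest 9.16) and B cell level (8.37, next highest 8.34) were the highest. The part of cell content in its Nduf values was not tested.

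**Figure D1:**
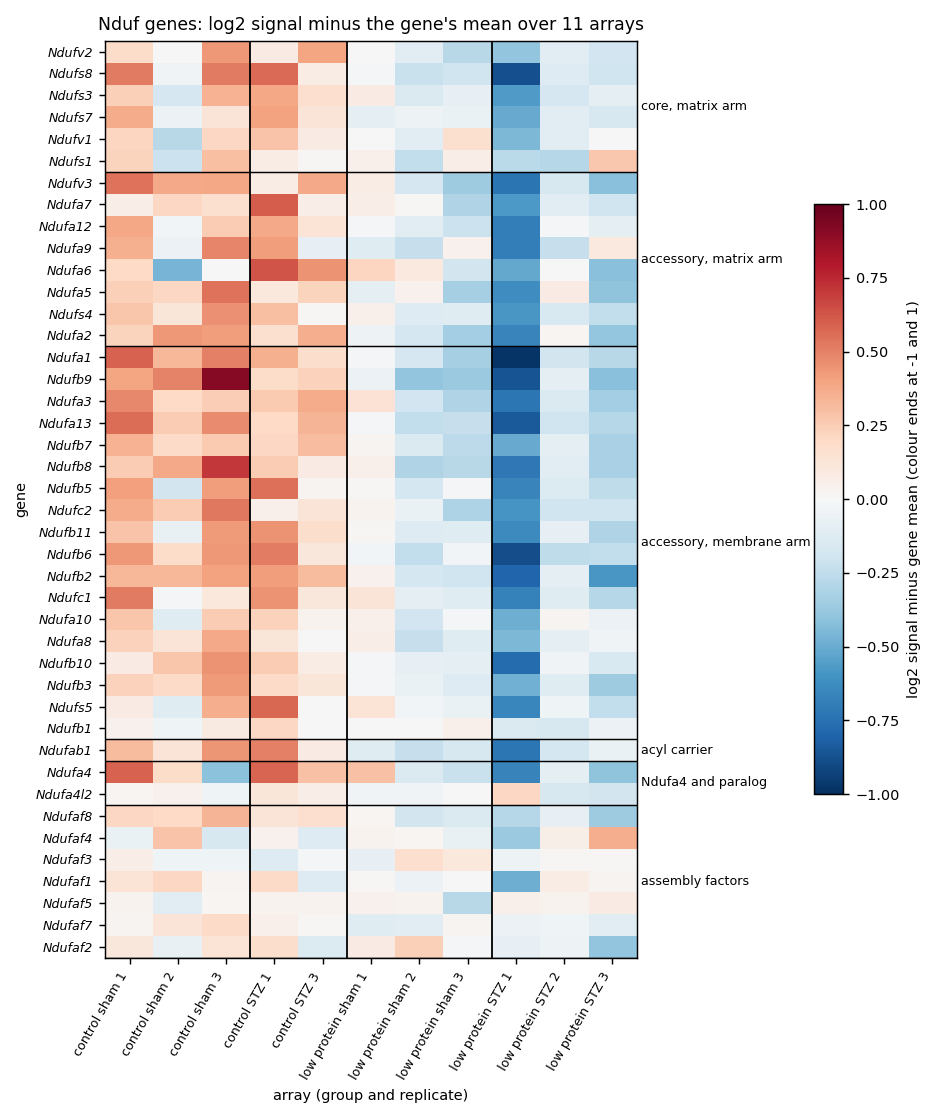
Heat map of the 42 tested Nduf genes (rows, grouped by role and ordered by mean signal) in the 11 arrays (columns, grouped by diet and injection). Colour gives log2 signal minus the mean of the gene over the 11 arrays; the control columns are mostly above the gene mean and the low protein columns mostly below it, with low protein STZ replicate 1 lowest in 34 of the 42 genes, while the assembly factors in the bottom block vary less.

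The first question was whether maternal protein restriction was followed by a different complex I signal in offspring that had not received the toxin. Between low protein sham and control sham arrays, 39 of the 42 Nduf genes were lower in the low protein offspring (57.7% of all genes tested were lower), and the median log2 difference was -0.32 against -0.02 over all genes tested. No Nduf gene and no other gene passed limma's test with Benjamini-Hochberg adjustment at 0.05 (0% of genes tested called); the smallest adjusted p of a Nduf gene was 0.209. Without low protein STZ replicate 1, which enters only the shared estimate of spread here, 3 Nduf genes were called, of 126 genes called in all. At an unadjusted p under 0.05, 20 Nduf genes were lower and 0 higher (7.22% and 3.2% of all genes). The count lower was 12 without control sham replicate 3 or without low protein sham replicate 2 (10.08% and 8.66% of all genes reached that p in either direction). For 20 Nduf genes every low protein array lay below every control array (10.2% of all genes), and for 0 above (5.57%). In whole pancreas, fewer cells of a type and less RNA per cell cannot be told apart.

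All 18 membrane arm accessory subunits were lower in the low protein sham arrays (median -0.37), 11 of them at an unadjusted p under 0.05 and 12 with no overlap between the groups. Ndufb9 read 12.50, 12.60 and 13.01 in the control sham arrays and 12.04, 11.71 and 11.74 in the low protein sham arrays. The highest low protein value was below the lowest control value, and the log2 difference was -0.87 ± 0.19 (SE), a signal 1.83-fold lower (limma adjusted p = 0.209). Ndufa1 read 13.49, 13.23 and 13.41 against 12.88, 12.73 and 12.57, again without overlap (-0.65 ± 0.18, SE, 1.57-fold lower, limma adjusted p = 0.224). Ndufc2, a membrane-spanning subunit, read 11.61, 11.50 and 11.77 against 11.28, 11.17 and 10.93 (-0.50 ± 0.13, SE, limma adjusted p = 0.212).

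In the matrix arm, the accessory subunits were lower in 7 of 8 genes (median -0.36) and the core subunits in 6 of 6 (median -0.20). Ndufv3 read 12.87, 12.71 and 12.72 in control sham and 12.41, 12.16 and 11.98 in low protein sham (-0.58 ± 0.15, SE, limma adjusted p = 0.213). By the probe set of highest mean, no core subunit separated the sham groups. Ndufv2, an iron-sulfur subunit of the NADH-oxidising tip, read 12.08, 11.90 and 12.33 against 11.90, 11.79 and 11.62 (-0.33 ± 0.13, SE). Its groups only touched, at the shared value of 11.90. Dimmer probe sets of Ndufs7, Ndufs8 and Ndufv1 did separate the sham groups, while further ones of Ndufs8 and Ndufv1 did not. Ndufab1, the mitochondrial acyl carrier protein that is bound in both arms, read 11.14, 10.96 and 11.27 against 10.70, 10.59 and 10.66, a gap without overlap (-0.47 ± 0.17, SE, limma unadjusted p = 0.0175). Ndufa6, the other LYR subunit that holds the acyl carrier protein, was the exception among the subunits, at 10.52, 9.85 and 10.32 in control sham against 10.53, 10.41 and 10.13 (0.13 ± 0.18, SE); without control sham replicate 2 the difference was -0.06.

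The 7 tested assembly factors differed less, with a median of -0.05 and 5 of 7 lower. Ndufaf8, which stabilises the arginine hydroxylase Ndufaf5, was the one with the smallest p: 11.04, 11.03 and 11.17 in control sham against 10.86, 10.65 and 10.69 in low protein sham (-0.35 ± 0.09, SE, limma adjusted p = 0.212). A second, dimmer probe set of Ndufaf8 gave 0.07 ± 0.10 (SE). Ndufaf3, which acts early in assembly together with Ndufaf4, read 9.36, 9.25 and 9.26 against 9.21, 9.46 and 9.40, with overlapping groups (0.07 ± 0.08, SE).

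**Figure D2:**
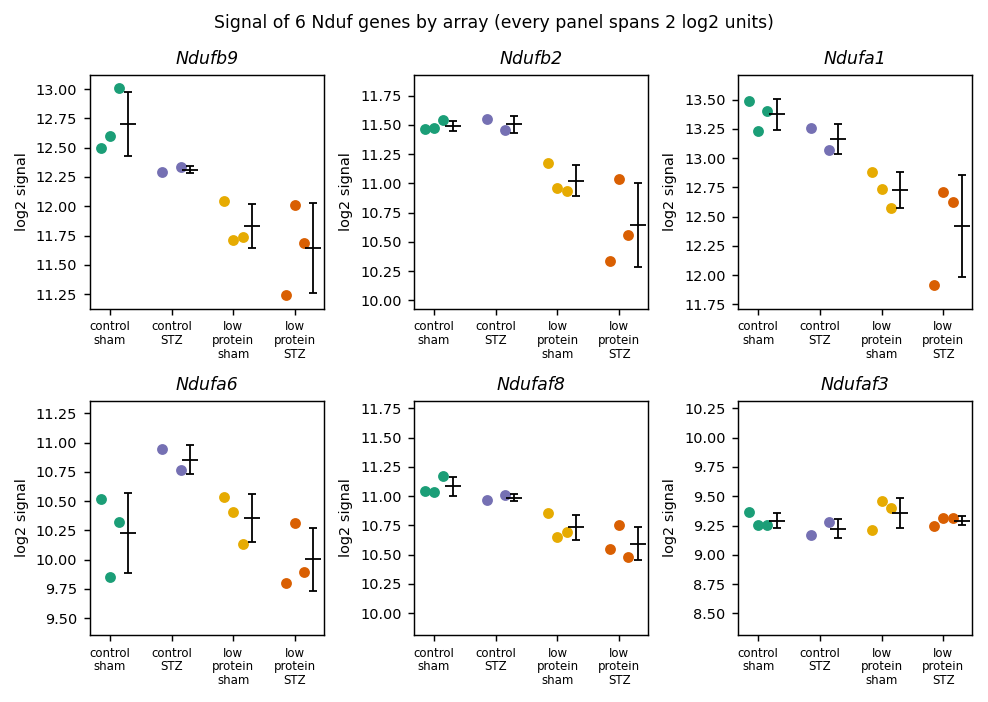
Log2 signal of 6 Nduf genes in every array (points), with the mean and SD of each group beside them (bars; 3 arrays per group, 2 for control STZ); each panel spans 2 log2 units. The control and low protein arrays are fully apart for Ndufb9, Ndufb2, Ndufa1 and Ndufaf8, control STZ stands highest for Ndufa6, and the groups overlap for Ndufaf3.

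The same comparison after STZ drew on other arrays, 3 of low protein STZ and 2 of control STZ. Again 39 of 42 Nduf genes were lower in the low protein offspring (62.3% of all genes), with a median of -0.52 against -0.04 over all genes tested. No gene of any kind was called by limma after adjustment (0%), and the smallest adjusted p of a Nduf gene was 0.348. At an unadjusted p under 0.05, 30 Nduf genes were lower and 0 higher (7.79% and 1.7% of all genes), and 34 had every low protein array below both control arrays (16.8% of all genes) and 0 above both (7.48%). Without low protein STZ replicate 1 the median was -0.39. Without control STZ replicate 1, which left 1 control STZ array, it was -0.41.

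All 18 membrane arm accessory subunits were separated without overlap after STZ (median -0.62). Ndufb2, an accessory subunit of the distal membrane arm, read 11.55 and 11.45 in control STZ and 10.34, 11.04 and 10.56 in low protein STZ (-0.86 ± 0.17, SE, 1.81-fold lower, limma adjusted p = 0.348). Its 2 other probe sets gave -0.74 and -0.09. Ndufb7 read 12.09 and 12.19 against 11.38, 11.79 and 11.56 (-0.57 ± 0.12, SE, limma adjusted p = 0.348), and Ndufb3 9.71 and 9.64 against 9.04, 9.40 and 9.16 (-0.47 ± 0.11, SE). Ndufb9 read 12.29 and 12.33 against 11.24, 12.01 and 11.68 (-0.67 ± 0.21, SE); of its 2 other probe sets one gave -0.64 and the dimmest 0.06.

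Of the matrix arm accessory subunits, 8 of 8 were lower after STZ (median -0.56), 7 of them without overlap. Ndufa6 read 10.94 and 10.77 in control STZ, its highest values of the 11 arrays, and 9.80, 10.31 and 9.90 in low protein STZ (-0.85 ± 0.20, SE, 1.80-fold lower, limma adjusted p = 0.348). The 6 core subunits were all lower (median -0.50), 5 without overlap. Ndufs8, an iron-sulfur subunit near the ubiquinone site, read 12.04 and 11.55 against 10.60, 11.35 and 11.28 (-0.72 ± 0.24, SE). Ndufs1, the largest core subunit, overlapped at 9.59 and 9.53 against 9.25, 9.24 and 9.79. Ndufab1 read 11.33 and 10.91 against 10.11, 10.65 and 10.76 (-0.61 ± 0.19, SE).

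The assembly factors had a median of -0.10 after STZ, with 4 of 7 lower. Ndufaf8 was again the one with the smallest p, at 10.96 and 11.01 against 10.55, 10.75 and 10.48 (-0.39 ± 0.10, SE, limma adjusted p = 0.348), with -0.23 ± 0.11 (SE) from its second probe set. Ndufaf3 read 9.17 and 9.28 against 9.25, 9.31 and 9.31 (0.07 ± 0.09, SE). Ndufaf4, an early assembly factor, read 9.81 and 9.63 against 9.39, 9.82 and 10.12 (0.06 ± 0.19, SE), and its second probe set gave -0.10 ± 0.30 (SE). Ndufa4 read 11.96 and 11.67 against 10.71, 11.28 and 10.98 (-0.82 ± 0.27, SE), while Ndufa4l2 read 8.87 and 8.81 against 8.95, 8.59 and 8.56 (-0.14 ± 0.10, SE).

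Averaging the diet differences of the sham and STZ arrays in the same fit, a comparison added after seeing the data, used 5 control and 6 low protein arrays. In it 40 of 42 Nduf genes were lower (62.2% of all genes), with a median of -0.41 against -0.03 over all genes tested. At an unadjusted p under 0.05, 32 were lower and 0 higher (11.7% and 3.65% of all genes). After adjustment limma called none and no other gene (0%), with the smallest adjusted p at 0.0574. The count called was not stable: array weights or a B cell covariate each gave 21 Nduf genes of 796 and 314 genes called in all, and leaving out single arrays gave 0 to 14. It was 4 (of 102 genes called in all) without control sham replicate 2, 9 (of 161) without low protein STZ replicate 1, 11 (of 89) without low protein STZ replicate 2 and 14 (of 460) without low protein STZ replicate 3, and 0 without any other single array.

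For 15 Nduf genes the highest of the 6 low protein values was under the lowest of the 5 control values (35.7% of the members and 2.47% of all genes tested); for 0 the order was the opposite (0.679% of all genes). They were Ndufa1, Ndufa3, Ndufa13, Ndufb2, Ndufb3, Ndufb6, Ndufb7, Ndufb8, Ndufb9, Ndufb10 and Ndufc2 of the membrane arm, Ndufa2 and Ndufa5 of the matrix arm, Ndufab1, and the assembly factor Ndufaf8. Ndufb2 differed by -0.66 ± 0.11 (SE) and Ndufb7 by -0.48 ± 0.08 (SE). Ndufa13, a membrane-spanning subunit also known as GRIM-19, read 12.48, 12.17, 12.39, 12.12 and 12.26 in the control arrays and 11.90, 11.67, 11.69, 11.08, 11.72 and 11.63 in the low protein arrays (-0.65 ± 0.12, SE, limma adjusted p = 0.0574). The count rests on the probe set of highest mean of each gene, and by it none of the 6 core subunits was among the 15. Dimmer probe sets of genes outside the 15 did separate the diets. These were found for the core subunits Ndufs7 (lowest control value 8.86, highest low protein value 8.70), Ndufs8 and Ndufv1. They were also found for Ndufa7, Ndufa12, Ndufb5 and Ndufb11. Further probe sets of Ndufs8, Ndufv1 and Ndufa7 did not separate them. Above the signal limit, a dimmer probe set of Ndufa5, Ndufb2, Ndufb7, Ndufb9, Ndufc2, Ndufab1 and Ndufaf8 did not fully separate the diets, while those of Ndufa3 and Ndufb6 did.

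By their medians, the assembly factors stood closer to 0 than the subunits in both diet comparisons, a contrast that was not tested. Over both injections all 33 subunits were lower (median -0.44, from -0.77 in Ndufb9 to -0.12 in Ndufb1), 29 of them at an unadjusted p under 0.05. The 7 assembly factors had a median of -0.08; Ndufaf8 (-0.37) and Ndufaf7 (-0.14), a methyltransferase, were lower at an unadjusted p under 0.05, and Ndufaf3 (0.07) and Ndufaf4 (0.02) were not lower. Assembly factors were also dimmer, and dim genes differed less between the diets. Among genes with a mean signal from 9 to 10, 7 subunits had a median of -0.41 and the 2 assembly factors Ndufaf3 and Ndufaf4 one of 0.04. From 10 to 11 the medians were alike, at -0.37 for 9 subunits and -0.37 for Ndufaf8, and from 7 to 9 they were -0.12 for Ndufb1 and -0.11 for 4 assembly factors. The 16 brightest subunits, from 11 to 13, had a median of -0.58 and no assembly factor beside them.

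Brightness mattered because the difference between the diets grew with signal across the whole array. Each Nduf gene was therefore set against the 200 tested genes outside the family nearest to it in mean signal. The median difference of such neighbours ran from -0.36 to 0.01 between the sham groups and from -0.44 to 0.01 after STZ. In the sham arrays 37 of 42 Nduf genes lay below the median of their own neighbours, by a median of -0.15, and after STZ 39 of 42 did, by -0.31. The share of neighbours with a difference still lower than that of the member had a median of 25.8% in the sham arrays and 7.2% after STZ. Ndufb9 differed by -0.59 more than its neighbours in the sham arrays, and Ndufb2 by -0.59 more after STZ. Other scalings gave smaller differences: with a cyclic loess between arrays the Nduf median was -0.18 in the sham arrays, -0.34 after STZ and -0.26 over both injections, and with every array brought to the same spread it was -0.21 and -0.40.

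**Figure D3:**
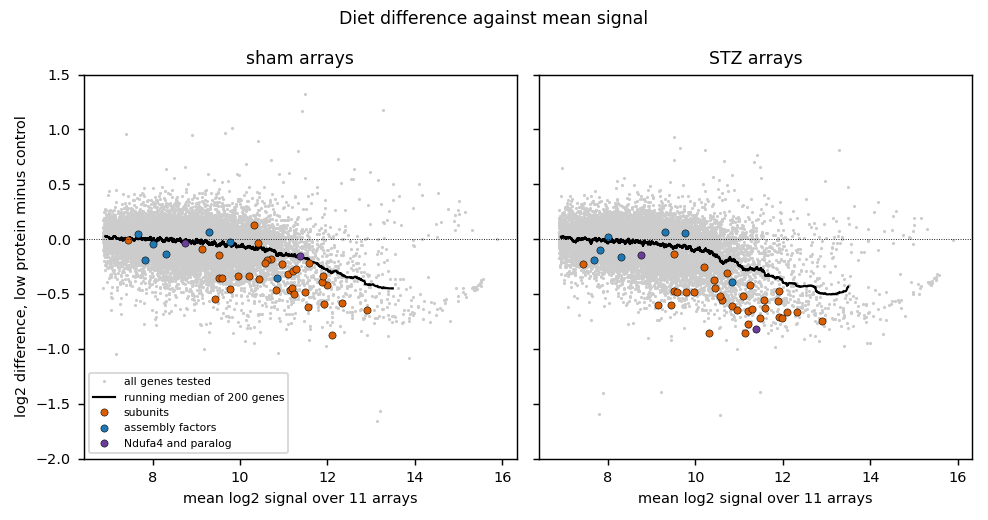
Log2 difference between low protein and control arrays (vertical axis) against mean log2 signal over 11 arrays (horizontal axis), in sham arrays (left) and STZ arrays (right), for all genes tested (grey) and Nduf genes (coloured by role); the line is the running median of 200 genes. Most Nduf subunits lie under the running median, by a median of -0.15 for all Nduf genes in sham arrays and -0.31 in STZ arrays against their neighbours in signal, and Ndufaf3 lies above it in both.

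Markers of acinar cells were lower alongside the Nduf genes. All 8 acinar genes tested were lower in the low protein arrays, without overlap, in both the sham (median -0.40) and the STZ arrays (-0.36). Of all genes tested, 10.2% and 16.8% were lower without overlap. The mean level of the acinar genes ran from 15.56 to 15.78 in the control arrays and from 14.96 to 15.42 in the low protein arrays. The 6 beta cell genes tested had a median of -0.75 between the sham groups and -0.10 between the STZ groups. Their levels were 11.35 to 11.70 in control sham and 10.40 and 10.45 in control STZ arrays. They were 10.34 to 10.90 in low protein sham and 10.18 to 10.57 in low protein STZ arrays. Endothelial genes were lower in 6 of 6 and 5 of 6 (levels 8.25 to 8.46 in control, 8.05 to 8.25 in low protein arrays), and stroma genes in 6 of 7 and 5 of 7 (10.13 to 10.82 and 9.83 to 10.23). The shares lower over all genes tested were 57.7% in the sham and 62.3% in the STZ arrays. The 2 adipocyte genes had levels of 9.25 to 9.57 and 8.85 to 9.37. B cell genes had medians of -0.01 and 0.11, and their levels overlapped (8.17 to 8.34 and 8.16 to 8.37). The difference of 3′ and 5′ control probe signals, a measure of RNA integrity, overlapped as well (1.08 to 1.93 in control, 1.22 to 1.91 in low protein arrays). The part of acinar, beta, endothelial, stromal or adipose content in the Nduf differences was not tested.

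The second question was what STZ did within each diet. On the control diet, 25 of 42 Nduf genes were lower in the STZ arrays (49.3% of all genes), with a median of -0.03 against 0.00 over all genes tested. The median was -0.09 without control STZ replicate 1 and 0.06 without control STZ replicate 3. No gene was called by limma (0%), and at an unadjusted p under 0.05, 0 Nduf genes were lower and 1 higher (2.13% and 1.92% of all genes). That one was Ndufa6, at 10.94 and 10.77 in the STZ arrays against 10.52, 9.85 and 10.32 in the sham arrays (0.63 ± 0.20, SE, 1.54-fold higher, limma adjusted p = 0.999). Ndufa4 was 0.31 ± 0.27 (SE) higher with overlapping groups. Ndufb9 (-0.39 ± 0.21, SE), Ndufc2 (-0.29 ± 0.14, SE) and Ndufb8 (-0.28 ± 0.19, SE) were among 6 genes with both STZ arrays below all sham arrays (7.72% of all genes); 2, Ndufa6 and Ndufa4l2, had both above (8.64%). Standard errors of 0.08 to 0.27 bound what 2 arrays against 3 could show. Beta cell marker levels were 10.40 and 10.45 in these STZ arrays and 11.35 to 11.70 in the sham arrays. The part of beta cell content in the Nduf values was not tested.

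On the low protein diet, 40 of 42 Nduf genes were lower in the STZ arrays (57.6% of all genes), with a median of -0.21 against -0.02. No gene was called by limma (0%), and 3 Nduf genes were lower and 0 higher at an unadjusted p under 0.05 (1.91% and 0.679% of all genes): Ndufb2 (-0.38 ± 0.15, SE), Ndufb3 (-0.25 ± 0.10, SE) and the late assembly factor Ndufaf2 (-0.28 ± 0.12, SE). Ndufb6 read 11.17, 10.95 and 11.17 in sham and 10.31, 10.95 and 10.95 in STZ arrays (-0.36 ± 0.17, SE). The groups did not overlap in 5 Nduf genes, all with STZ lower (5.14% of all genes; 2.6% had STZ higher). Only Ndufaf5 (0.12 ± 0.09, SE) and Ndufaf4 (0.02 ± 0.17, SE) were not lower. This difference rested largely on 1 array: without low protein STZ replicate 1 the median was -0.07 and 31 of 42 genes were lower. Without low protein STZ replicate 2 the median was -0.32 and 18 Nduf genes were lower at an unadjusted p under 0.05 (2.43% of all genes reached that p in either direction). B cell markers differed between the same arrays: 7 of 9 were higher after STZ (median 0.14), 1 of them at an unadjusted p under 0.05, and the median of the list about its gene means ran from 0.02 to 0.12 in the STZ and from -0.0854 to -0.0023 in the sham arrays, without overlap. Array weights gave an Nduf median of -0.08, cyclic loess scaling -0.13 and a B cell covariate one of -0.025.

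The difference of the STZ effects between the diets was tested in the same fit. It was negative in 33 of 42 Nduf genes (55% of all genes), with a median of -0.13, and no gene was called by limma (0%). The median was 0.00 without low protein STZ replicate 1, -0.0035 with array weights and -0.02 with a B cell covariate. Ndufa6 was the 1 member at an unadjusted p under 0.05 (2.21% of all genes in that direction). Its STZ difference was 0.63 on the control diet and -0.36 on the low protein diet, a difference of -0.98 ± 0.27 (SE, limma adjusted p = 1). Next were Ndufb1 (-0.22 ± 0.11, SE), Ndufa4 (-0.67 ± 0.36, SE) and Ndufs5 (-0.50 ± 0.28, SE), a small membrane arm subunit. The values furthest above 0 were those of Ndufb9 (0.20 ± 0.28, SE) and Ndufaf4 (0.08 ± 0.25, SE).

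By array, the median of the Nduf genes about their own means ran from 0.10 to 0.36 in the 5 control arrays and from -0.59 to 0.01 in the 6 low protein arrays, so the diets did not overlap. The lowest was low protein STZ replicate 1, which held the lowest value of the 11 arrays for 34 of 42 Nduf genes (81.0%, against 20.8% of all genes tested and 33.2% of their pooled neighbours in signal, each counted once). The highest values fell mostly on control sham replicate 3 and control STZ replicate 1 (13 genes each) and control sham replicate 1 (9 genes). The lowest low protein array aside, the remaining low protein medians ran from -0.22 to 0.01.

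**Figure D4:**
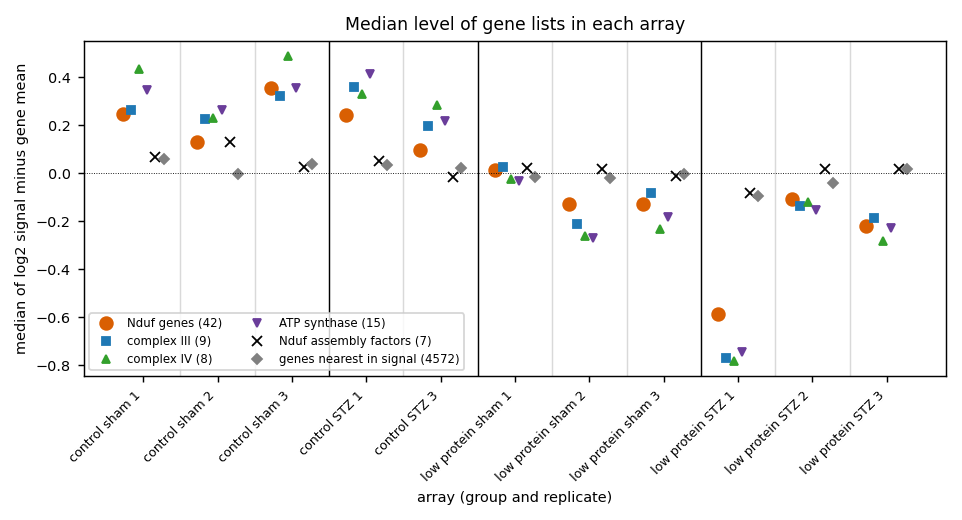
Median log2 signal, after subtracting the mean of each gene over the 11 arrays (vertical axis), for the Nduf genes and 5 other gene sets in each array (horizontal axis, by group and replicate); the number of genes is in the key. The Nduf median is 0.10 to 0.36 in control arrays and -0.59 to 0.01 in low protein arrays. Complexes III and IV and ATP synthase follow the same order of diets. The Nduf assembly factors and the pooled genes nearest in signal stay close to 0. That pool counts each gene once and so is not weighted to the brightness of the Nduf genes. Taken member by member, the neighbours of the subunits differed by a median of -0.17 between the diets over both injections.

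Other parts of the respiratory chain were read from fixed lists for comparison, with no gene called in any. Genes were counted as lower over both injections at an unadjusted p under 0.05, which held for 11.7% of all genes tested. By this count 8 of 9 complex III genes (median -0.50), 8 of 8 complex IV genes (-0.62) and 14 of 15 ATP synthase genes (-0.58) were lower, beside 32 of 42 Nduf genes (-0.41). The smallest p-values in these lists were those of Uqcrh (-0.50 ± 0.08, SE), Cox6b1 (-0.58 ± 0.10, SE) and Atp5h (-0.61 ± 0.11, SE), subunits of the respective complexes. Complex II, the succinate dehydrogenase, had 1 of 4 genes lower, Sdhb (-0.43 ± 0.11, SE), and a median of -0.15. The 11 tested complex I assembly factors not named Nduf had 2 lower and a median of -0.09, with the smallest p in Dmac1 (-0.25 ± 0.07, SE), close to the -0.08 of the Nduf assembly factors. Of 14 genes of mitochondrial mass and biogenesis, 4 were lower (median -0.19), with the smallest p in Tomm20 (-0.69 ± 0.19, SE), an import receptor of the outer membrane. The lists also differed in signal. On control sham replicate 1 the mean level was 12.85 for complex IV, 12.10 for ATP synthase and 11.90 for complex III. It was 11.20 for complex II, 10.70 for the Nduf genes and 8.58 for the other assembly factors. The other lists were not set against genes of equal signal, so these medians do not rank the complexes.

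One subunit encoded by mitochondrial DNA could be read, ND5, a proton channel of the membrane arm. Its signal was 14.72, 14.30 and 14.41 in control sham, 14.18 and 14.33 in control STZ, 14.03, 13.71 and 13.70 in low protein sham and 13.34, 12.84 and 13.75 in low protein STZ arrays. All 6 low protein values were below all 5 control values (-0.81 ± 0.15, SE, limma adjusted p = 0.0574). The lowest array was low protein STZ replicate 2, not replicate 1 as for most nuclear members.

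Genes with several probe sets allowed a check within the arrays. Of 79 Nduf probe sets above the signal limit, 76 were lower over both injections and 59 at an unadjusted p under 0.05, with a median of -0.40. Of 21 genes with more than 1 such probe set, 19 had all of them lower and 2 had probe sets of both signs. Probe sets of one gene share the same RNA and are not replicates.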

How the data were processed

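Pancreas RNA of 11 mice was hybridised to a mouse Affymetrix array of 45101 probe sets. The authors deposited 1 log2 signal per probe set and array; per the submitters' processing notes, RMA and Partek 6.5 were used, with roles and settings not given in the sources used here. The number of arrays limits the precision. Members and lists were chosen with earlier results of these data known.

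Probe sets with 1 gene symbol (34958; 932 had several and 9211 none) were reduced to the one of highest mean per gene, and genes with a mean at or under 6.87, the 0.25 quantile of probe set means, were left out of the tests. Group means of all 4 groups were fitted with limma 3.58.1 (R 4.3.3; lmFit, eBayes, two-sided), with Benjamini-Hochberg adjustment over 15897 genes and a threshold of 0.05. The steps were tested on simulated data. Text names, per comparison, the 4 members with the smallest p and the 2 with the largest differences each way, the brightest and dimmest, members by role, and the smallest p of other lists. Promoters are from RefSeq (GRCm38.p6). Alternatives were array weights, other scalings, covariates, filters, probe set rules, a replicate block and leaving out each array.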

Additional observations from a re-analysis of the deposited data

How the results depend on the processing

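Nduf medians are compared with the spread between replicates (0.16 on the log2 scale), which exceeds the medians of STZ on the control diet and of the difference of effects, so nothing follows for the stability of those 2. The former was -0.056 with array weights and 0.0297 with a B cell covariate. It ran from -0.0901 without control STZ replicate 1 to 0.0583 without control STZ replicate 3. The latter was -0.0035 with array weights and -0.0186 with a B cell covariate. It ran from -0.2313 without low protein STZ replicate 2 to 0.0006 without low protein STZ replicate 1. In the other comparisons the medians moved by less than that spread and the counts of called Nduf genes stayed at 0 under every alternative run, except the following. For STZ against sham on the low protein diet, a B cell covariate gave a median of -0.025. For the diets in sham arrays, 1 Nduf gene, Ndufb9, was called without control sham replicate 1 and low protein STZ replicate 1 together (adjusted p = 0.0477, limma; 56 genes called in all), and 0 to 3 without single arrays (at most 126 genes in all). For the diets after STZ, cyclic loess scaling gave a median of -0.34. For both injections, called members numbered 21 with array weights (of 796 genes called in all), 21 with the B cell covariate (of 314) and 3 without both named arrays (of 86), and 0 to 14 without single arrays (at most 460); the cause was not tested. Differences near 0 changed sign: Ndufaf4 was -0.0188 after STZ and -0.0934 over both injections as the mean of its probe sets. Leaving out single arrays moved Ndufaf4 between -0.153 and 0.215 for STZ on the low protein diet, between -0.115 and 0.253 for the diets after STZ, between -0.0886 and 0.279 for the difference of effects and between -0.0708 and 0.113 over both injections, and Ndufa6 between -0.0568 and 0.276 for the diets in sham arrays. Replicate numbers did not pair the arrays (correlations of deviations from -0.32 to 0.257); with the number as a replicate block, no Nduf gene was called, the medians were -0.02, -0.21, -0.32, -0.53, -0.13 and -0.42 in the order of the 2 STZ comparisons, the diets in sham and STZ arrays, the difference of effects and both injections, and Ndufaf4 was -0.0116 over both injections.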

Other observations

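Ndufaf5, the assembly factor that hydroxylates a core subunit, had the identical signal of 8.04 in 5 of the 11 arrays, so its SD of 0.00 in control STZ is not a measure of biological spread. Ndufb1 shared 1 value among 3 arrays. Ndufa4 varied most within the control sham arrays, at 11.97, 11.56 and 10.97, while its paralog Ndufa4l2 read 8.77, 8.79 and 8.70 in the same arrays. These features were chosen after their values were seen.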
